A study of Homo sapiens with 12 samples.

Results

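The 10 genes described here encode heat shock chaperones of the cytosol and the mitochondria, together with proteins that assist them: HSPA1A, HSPA1B, HSPA8, HSP90AA1, HSPH1, DNAJB1, HSPB1, BAG3, HSPD1 and HSPE1. They are the rows of the count table with these symbols, 10 of its 25049 genes, and the choice of symbols was made with earlier results of these data known. All 10 passed the filter on low counts, which kept 21974 genes for testing.

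Heat shock chaperones bind proteins that are unfolded or only partly folded, and hold or refold them in cycles driven by ATP. HSP70 proteins receive clients from DNAJ partners and release them with the help of nucleotide exchange factors, HSP90 matures kinases and steroid receptors, small heat shock proteins hold clients without ATP, and HSP60 with HSP10 forms a folding chamber in mitochondria. Many of these genes are transcribed by heat shock factor 1 (HSF1) from heat shock elements in their promoters, and cancer cells are known to depend on several of them.

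RNA was counted in 12 samples of MDA-MB-231b, a bone-tropic derivative of the established human triple-negative breast cancer line MDA-MB-231, made by passage through the bone of athymic nude mice. Each of 4 groups had 3 samples: WT with DMSO, WT with paclitaxel, GLI2 KO with DMSO and GLI2 KO with paclitaxel. Paclitaxel, a taxane that stabilises microtubules, was given at 50 nM for 2 days, and DMSO is its solvent. Both genotypes passed through lentiviral CRISPR-Cas9, for which the design text names a guide RNA against GLI2 (a transcription factor of Hedgehog signalling) and a non-targeted guide. The sources used here do not say whether the edited cells were a clone or a pool. Nor do they call the 3 samples of a group separate cultures, so a p-value here measures sample spread that may be technical only.

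Totals ran from 83230948 to 109018776 counts per sample. Levels are CPM, a gene's counts relative to its library's total, after scaling by TMM, a factor per sample that corrects for a few genes taking a large share. GLI2 itself was at 10.4, 11.4 and 10.6 CPM in WT DMSO, 9.28, 8.23 and 10.1 in GLI2 KO DMSO, 6.42, 5.65 and 4.97 in WT paclitaxel and 3.97, 4.14 and 4.39 in GLI2 KO paclitaxel. It was lower in every GLI2 KO sample than in any WT sample of the same treatment, and its transcript was present throughout. VIM, CD44 and EGFR, which mark this line, had mean levels of 1865 to 2923, 257 to 292 and 574 to 751 CPM over the 4 groups. Of the receptors that a triple-negative line lacks, ESR1 was at 0 or without a row, PGR had group means of 0.0038 to 2.48 CPM, and ERBB2 of 45.2 to 57.9 CPM. Markers of stromal cells summed to 57.3 to 63.1 CPM in the DMSO samples and 70.6 to 80.9 CPM in the paclitaxel samples, with COL1A2, LUM, DCN and ALPL at 0 or without a row. Haematopoietic markers summed to 0.328 to 1.02 CPM in DMSO and 0.819 to 2.57 CPM in paclitaxel, with CD3E and HBB among those at 0 or without a row. The mitochondrial share of counts was 3.99% to 4.69% in DMSO and 4.83% to 5.33% in paclitaxel. The part of these values in the results below was not tested.

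Promoters show what several members share beside their function. Heat shock elements are built from the unit nGAAn in alternating orientation, so each RefSeq promoter window (GRCh38.p14, 250 bases before to 50 after a start, 300 in all) was searched on both strands for 2 units (GAA, any 2 bases, TTC, or TTC, any 2 bases, GAA) and for 3 units (GAA, 2 bases, TTC, 2 bases, GAA, or TTC, 2 bases, GAA, 2 bases, TTC). All 10 members were found, with 14 windows. The 3-unit letters occurred in 3 of 10 members, HSPA8, HSP90AA1 and HSPD1, against 0.608% of 27305 genes and 0.490% of 35116 windows. The 2-unit letters, which every 3-unit match contains, occurred in 7 of 10 members against 16.2% of genes and 13.5% of windows. The stretches below are printed 5′ to 3′ on the gene's strand, with the matched letters in capitals: the 3-unit matches, because the same 3 genes recur in the paclitaxel comparisons, and for the other members the 2-unit matches that lie before the start. A further 2-unit match in a window of HSP90AA1 and 1 in another window of DNAJB1 are not printed.
HSPA8, chr11:123062346-123062374, minus strand, 230 to 218 bases before the start: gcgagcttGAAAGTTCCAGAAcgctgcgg
HSPA8, chr11:123062171-123062199, minus strand, 55 to 43 bases before the start: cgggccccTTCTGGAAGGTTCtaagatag
HSP90AA1, chr14:102087112-102087140, minus strand, 88 to 76 bases before the start: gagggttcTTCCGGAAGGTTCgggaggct
HSPD1, chr2:197500062-197500090, minus strand, 245 to 228 bases before the start, 2 overlapping matches: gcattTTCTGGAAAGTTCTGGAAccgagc
HSPA1A, chr6:31815429-31815452, plus strand, 106 to 99 bases before the start: aaaccctgGAATATTCccgacctg
HSPA1B, chr6:31827625-31827648, plus strand, 105 to 98 bases before the start: aacccctgGAATATTCccgacctg
HSPB1, chr7:76302483-76302506, plus strand, 182 to 175 bases before the start: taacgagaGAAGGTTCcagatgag
DNAJB1, chr19:14518459-14518482, minus strand, 77 to 70 bases before the start: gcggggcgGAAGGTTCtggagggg
DNAJB1, chr19:14518429-14518452, minus strand, 47 to 40 bases before the start: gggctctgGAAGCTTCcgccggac

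HSPH1, BAG3 and HSPE1 held neither pattern in their windows, which says only that these letters are not there. For HSPE1 this hangs on the window edge, since its window (chr2:197500129-197500428) begins shortly after the HSPD1 stretch. That stretch lies within the annotated HSPE1 gene (197499994 to 197503457). A match describes the letters and was not tested as a binding site. HSPA1A and HSPA1B, neighbours on chromosome 6, carry the same 8 matched letters.

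Before the comparisons, 1 pattern among the libraries bears on most of these genes. In each group, the library with the highest number in the labels (5 in WT DMSO, 6 in WT paclitaxel, 11 in GLI2 KO DMSO and 12 in GLI2 KO paclitaxel) held the lowest level of its group in all 4 groups for 7 of 10 members: HSPA1A, HSPA1B, HSPA8, HSPH1, DNAJB1, HSPD1 and HSPE1. The same held for 4.68% of all genes tested. Relative to the mean of the other libraries of its group, HSPA1B stood at -0.475, -0.452, -0.954 and -0.779 log2 units there in WT DMSO, WT paclitaxel, GLI2 KO DMSO and GLI2 KO paclitaxel. DNAJB1 stood at -0.396, -0.285, -0.58 and -0.367, and HSPA8 at -0.244, -0.188, -0.344 and -0.288. By contrast, HSP90AA1 was lowest in this library in 2 groups and highest in 2, and HSPB1 was highest in 3. These 4 libraries are WT DMSO replicate 2, WT paclitaxel replicate 3, GLI2 KO DMSO replicate 3 and GLI2 KO paclitaxel replicate 3, numbered in accession order. The sources used here do not say what sets them apart, and the cause was not tested. Results were also computed without them, a choice made after the pattern was seen in these genes, so the smaller spread that results follows in part from the choice. For HSP90AA1, HSPA8, HSPA1A and HSPA1B, the lowest adjusted p of each range printed below comes from that refit. It is thus low in part by that choice.

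**Figure D1:**
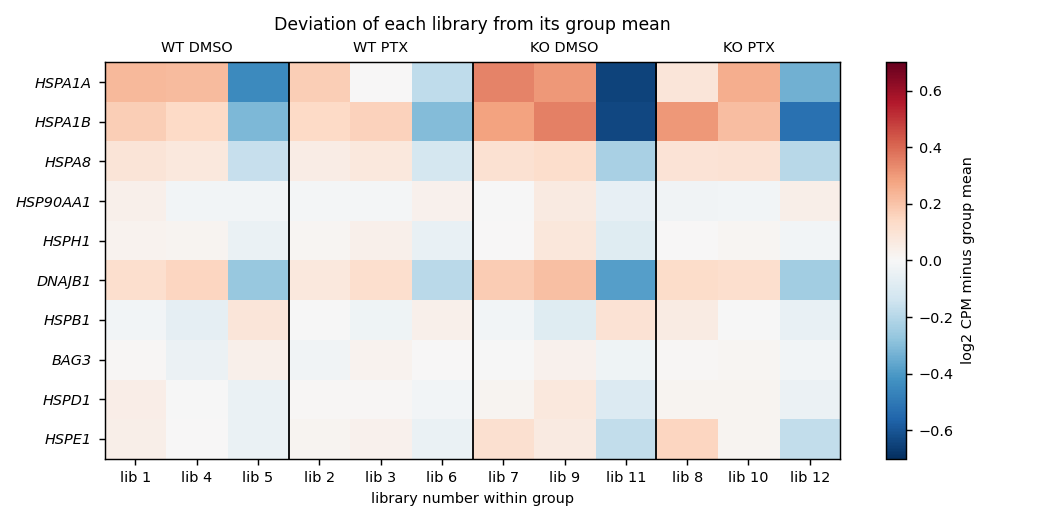
Deviation of each library from its group mean in log2 CPM (colour, limited to 0.7 in either direction) for the 10 genes (rows) in 12 libraries (columns, by library number within group). Blue cells in the columns of libraries 5, 6, 11 and 12 mark the low levels of HSPA1A, HSPA1B, HSPA8 and DNAJB1 there, while HSP90AA1, BAG3 and HSPB1 stay near their group means.

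With TMM scaling, HSPA8, HSP90AA1 and HSPD1 fell under paclitaxel in both genotypes, while with library totals HSPD1 turned to a rise that was not called in either. HSPH1, by contrast, rose slightly in both. In GLI2 KO cells BAG3 and HSPE1 fell as well, BAG3 turning in sign with library totals. Differences were tested over all genes with the quasi-likelihood F test of edgeR, with calls at a Benjamini-Hochberg adjusted p below 0.05. In WT cells it called 1 member higher and 3 lower, where 34.6% of all genes were called higher and 32.1% lower, 66.7% in all. Treatments did not overlap for 6 members, beside 71.5% of all genes. In GLI2 KO cells it called 1 higher and 5 lower, where 33% and 32.2% of genes were called, 65.2% in all, and 6 members did not overlap, beside 67.2% of genes. With 4 and 6 of 10 called, the members were thus called no more often than genes at large. The median log2 fold change of the members was -0.15 in WT cells and -0.32 in GLI2 KO cells, beside 0.034 and 0.018 over all genes tested. Directions hang on the scale: upper-quartile factors moved the median of all genes up by 0.13 in WT and 0.12 in GLI2 KO cells relative to TMM, and library totals by 0.16 and 0.18. Of all genes, TMM called 7613 higher and 7047 lower in WT cells, upper-quartile factors 9905 and 4731, and library totals 10352 and 4295. In GLI2 KO cells the splits were 7250 and 7077, 9324 and 4791, and 10398 and 3831. The members' own split moved too: with library totals 3 were called higher (HSPH1, HSPB1 and BAG3) and 0 lower in WT cells, with a median of 0.0039, and 1 higher and 2 lower (HSPA8 and HSP90AA1) in GLI2 KO cells, with a median of -0.14. Fewer cells of a type and less RNA per cell cannot be told apart in such bulk samples. The 3 members called lower in both genotypes with TMM are the 3 with a 3-unit element printed above, a description of 10 genes without a test. It depends on the window, whose edge leaves the HSPD1 element out of the window of HSPE1, called lower in GLI2 KO cells only. HSPA8, HSP90AA1 and HSPD1 are also the 3 members with the highest levels. DNAJB1, with 2-unit matches only, had larger mean falls than HSPD1 (-0.41 and -0.48 against -0.13 and -0.17 in WT and GLI2 KO cells) but was not called.

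Between genotypes, other members differed. HSP90AA1 and HSPB1 were lower in GLI2 KO than in WT cells in both treatments, and HSPH1 was higher in both. In DMSO the test called 3 members higher and 2 lower, where 22% and 19.6% of all genes were called, 41.6% in all, and 5 members did not overlap, beside 48.6% of genes. In paclitaxel it called 1 higher and 2 lower, where 23.4% and 22.2% of genes were called, 45.6% in all, and 5 members did not overlap, beside 55.2% of genes. Medians of the members were 0.073 and -0.011, beside 0.0081 and -0.0073 over all genes. The paclitaxel effect differed between genotypes for 1 member, HSP90AA1, which was called lower, where 6.56% of all genes were called higher and 6.93% lower, 13.5% in all. The comparisons share samples: each treatment comparison uses a DMSO group that the genotype comparison in DMSO uses too. All WT samples carry library numbers 1 to 6 and all GLI2 KO samples 7 to 12. A genotype difference therefore cannot be told apart from one that goes with library order.

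**Figure D2:**
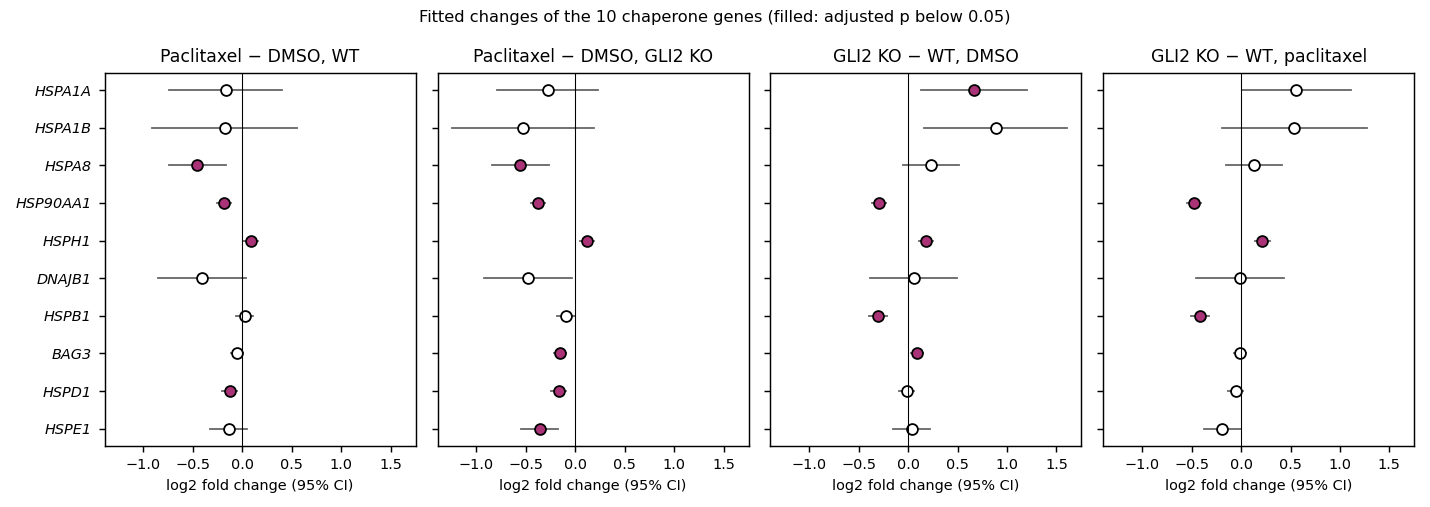
Fitted log2 fold changes (points) with 95% confidence intervals (lines) of the 10 genes in 4 comparisons, filled where the adjusted p is below 0.05. All values drawn use TMM scaling. Under paclitaxel most points lie below 0 and HSPH1 lies above 0, while HSP90AA1 and HSPB1 lie below 0 in both genotype comparisons. With library totals, which are not drawn, HSPD1 and BAG3 turn to above 0 under paclitaxel in both genotypes.

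HSP90AA1 encodes the inducible form of cytosolic HSP90 and lies on chromosome 14 (102080738 to 102139699, minus strand, GRCh38, GENCODE 29 as for all coordinates of genes here). Its levels were 4107, 3958 and 3958 CPM in WT DMSO and 3491, 3479.8 and 3586 CPM in WT paclitaxel. In GLI2 KO cells they were 3269, 3413 and 3138 CPM in DMSO and 2484, 2491 and 2598 CPM in paclitaxel. No pair of groups compared overlapped, and the replicates of a group lay within a few percent of each other (SD of 86.0, 58.4, 137 and 63.8 CPM in the same order, n = 3 each). Under paclitaxel HSP90AA1 fell by 12.2% in WT cells (log2 fold change -0.19 ± 0.034, SE; edgeR adjusted p = 3.66e-05), and in GLI2 KO cells it fell by 22.9% (-0.37 ± 0.034; edgeR adjusted p = 7.96e-10). The percent difference of GLI2 KO from WT cells was -18.3 in DMSO (-0.29 ± 0.034; edgeR adjusted p = 1.17e-07) and -28.3 in paclitaxel (-0.48 ± 0.034; edgeR adjusted p = 1.88e-11). The fall under paclitaxel was larger in GLI2 KO than in WT cells, by -0.19 ± 0.049 on the log2 scale (edgeR adjusted p = 0.0114), and each of 21 alternatives kept this call, with adjusted p from 4.97e-06 to 0.0405. The fall in WT cells lost its call when library totals (-0.031) or upper-quartile factors (-0.055) set the scale, with adjusted p from 2.93e-10 to 0.387 over 22 alternatives. The other 3 calls held in all alternatives run.

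HSP90AB1, the constitutive cytosolic HSP90, gives a measure of HSP90AA1 that needs no scaling between libraries. The 2 genes are counted in the same library, so the ratio of their counts was compared between groups only, since gene lengths set its size. It was 1.37 to 1.39 in WT DMSO, 1.34 to 1.39 in WT paclitaxel, 1.01 to 1.05 in GLI2 KO DMSO and 0.883 to 0.944 in GLI2 KO paclitaxel (lowest to highest of 3 samples). GLI2 KO and WT did not overlap in either treatment, with differences of -0.42 and -0.58 on the log2 scale (exact permutation p = 0.1 each, two-sided, the smallest that 3 samples against 3 allow). Paclitaxel lowered the ratio without overlap in GLI2 KO cells (-0.18; exact permutation p = 0.1), while in WT cells the groups overlapped (-0.016; exact permutation p = 0.5). This pair and the ratios below are from 7 ratios in 28 comparisons, picked after the values had been seen, and at a lowest p of 0.1 none can pass with or without adjustment. HSP90AB1 itself had mean levels of 2911, 2584, 3172 and 2777 CPM in WT DMSO, WT paclitaxel, GLI2 KO DMSO and GLI2 KO paclitaxel. It fell under paclitaxel (-0.17 in WT, -0.19 in GLI2 KO cells; edgeR adjusted p = 0.000138 and 3.71e-05) and was higher in GLI2 KO than WT cells (0.12 in DMSO, 0.10 in paclitaxel; edgeR adjusted p = 0.00560 and 0.0177), so HSP90AA1 and HSP90AB1 went opposite ways with the genotype. The falls of HSP90AB1 under paclitaxel lost their calls with upper-quartile factors (-0.039 and -0.069) and with library totals (-0.015 in each genotype), and its genotype difference in paclitaxel lost its call with upper-quartile factors (0.070).

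HSPA8, the constitutive cytosolic HSP70 (HSC70), lies on chromosome 11 (123057489 to 123063230, minus strand) and hosts the small nucleolar RNA genes SNORD14C and SNORD14D, with which 3.61% of its exon bases overlap. Its levels were 3713, 3115 and 3664 CPM in WT DMSO, 2677, 2644 and 2336 in WT paclitaxel, 4390.4, 4449 and 3482 in GLI2 KO DMSO, and 2965, 2977 and 2434 in GLI2 KO paclitaxel. Every paclitaxel sample was below every DMSO sample of its genotype. HSPA8 fell by 27% in WT cells (-0.455 ± 0.13; edgeR adjusted p = 0.0109) and dropped by 32% in GLI2 KO cells (-0.56 ± 0.13; edgeR adjusted p = 0.00391). These were the largest falls called among the 10 genes, and without the 4 highest-numbered libraries they were -0.465 and -0.569. In WT cells the call was lost with library totals (-0.30; adjusted p = 0.0566, over a range of 6.90e-23 to 0.0566 for 22 alternatives), while in GLI2 KO cells all 22 kept it. GLI2 KO cells had higher HSPA8 means in both treatments, but the groups overlapped and the test made no call (0.23 ± 0.12 in DMSO, edgeR adjusted p = 0.184; 0.13 ± 0.12 in paclitaxel, edgeR adjusted p = 0.449). Both differences were called without the 4 libraries (0.27 and 0.16) or with a term for them (0.23 and 0.125), with adjusted p from 4.62e-14 to 0.427 and from 4.75e-08 to 0.738 over 21 alternatives each.

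HSPA8 was the only member with a called paclitaxel change of at least 0.5 on the log2 scale, and the genes closest to it over the 4 group means were sought among genes of at least 20 CPM. YEATS4, FEZ2 and NTAQ1 had the smallest root mean square distances, 0.0049, 0.0098 and 0.018 log2 units over 4 groups. YEATS4 changed by -0.44 and -0.55 under paclitaxel in WT and GLI2 KO cells, FEZ2 by -0.47 and -0.54, and NTAQ1 by -0.41 and -0.54.

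HSPA1A and HSPA1B encode the stress-induced HSP70 and lie 31815464 to 31817946 and 31827735 to 31830255 on the plus strand of chromosome 6. Their coding sequences are near-identical, so the split of counts between them is uncertain. HSPA1B also shares 36.5% of its exon bases with AL671762.1, and the sources used here do not say whether counting used strand. HSPA1B was at 63.7, 45.3 and 62.3 CPM in WT DMSO, 56.1, 55.1 and 40.6 in WT paclitaxel, 123, 129 and 65 in GLI2 KO DMSO, and 87.8, 82.7 and 49.7 in GLI2 KO paclitaxel. The GLI2 KO DMSO samples all lay above the WT DMSO samples, the lowest by a narrow margin, and the paclitaxel groups overlapped. HSPA1A was at 1.17, 0.733 and 1.16 CPM in WT DMSO, 0.915, 1.03 and 0.809 in WT paclitaxel, 2, 1.94 and 1 in GLI2 KO DMSO, and 1.42, 1.60 and 1.06 in GLI2 KO paclitaxel. It sat far below HSPA1B in all samples, and its GLI2 KO and WT groups overlapped in DMSO. The ratio of HSPA1B to HSPA1A counts was 46.8 to 66.6 over the 12 samples. Whether reads of HSPA1B were counted for HSPA1A was not tested, so the 2 genes may not be separate measures.

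GLI2 KO cells in DMSO had HSPA1A 0.67 ± 0.25 log2 units above WT (edgeR adjusted p = 0.0443) and HSPA1B 0.88 ± 0.32 above (edgeR adjusted p = 0.0544), so that HSPA1A alone passed the test. Neither value is firm. For HSPA1A the call was lost in 9 of 12 refits that left out 1 library (all but those without GLI2 KO DMSO replicate 3, GLI2 KO paclitaxel replicate 2 or GLI2 KO paclitaxel replicate 3), over values of 0.49 to 0.93. It was also lost without the low-count filter (0.66), with only the 2 groups in the fit (0.67) and when both genes were summed (0.88); adjusted p ran from 5.70e-05 to 0.160 over 22 alternatives. HSPA1B passed without GLI2 KO DMSO replicate 3 (1.14), without GLI2 KO paclitaxel replicate 3 (0.885), with DESeq2 (0.88), with a minimum count of 50 (0.88) and with a term for the highest-numbered libraries (0.85). It also passed without those libraries, which gave the lowest adjusted p of a range from 6.99e-31 to 0.161. In paclitaxel the differences were 0.56 ± 0.25 for HSPA1A and 0.54 ± 0.32 for HSPA1B (edgeR adjusted p = 0.0904 and 0.215). HSPA1A passed there without GLI2 KO DMSO replicate 3 (0.56) or GLI2 KO paclitaxel replicate 3 (0.72), with DESeq2 (0.57) and with only the 2 groups fitted (0.56). Both genes passed there with a term for the highest-numbered libraries (0.55 and 0.51) or without those libraries. For HSPA1A adjusted p ran from 0.00137 to 0.259 over 22 alternatives. Paclitaxel changes were -0.17 ± 0.27 and -0.18 ± 0.32 in WT cells and -0.28 ± 0.24 and -0.53 ± 0.31 in GLI2 KO cells for HSPA1A and HSPA1B, with no call (edgeR adjusted p = 0.596, 0.647, 0.325 and 0.172). In GLI2 KO cells both were called lower without GLI2 KO DMSO replicate 3 (-0.55 and -0.79) and without the 4 highest-numbered libraries (-0.38 and -0.56). With a block for neighbouring library numbers HSPA1B was called lower in WT (-0.17) and GLI2 KO cells (-0.51), and the difference between these effects was called as well (-0.33). HSPA1B was also called lower in WT cells without the 4 libraries (-0.18) and in GLI2 KO cells with a term for them (-0.51). Without the highest-numbered libraries HSPA1B differed between genotypes by 1 log2 unit in DMSO and 0.62 in paclitaxel, and HSPA1A by 0.76 and 0.63.

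**Figure D3:**
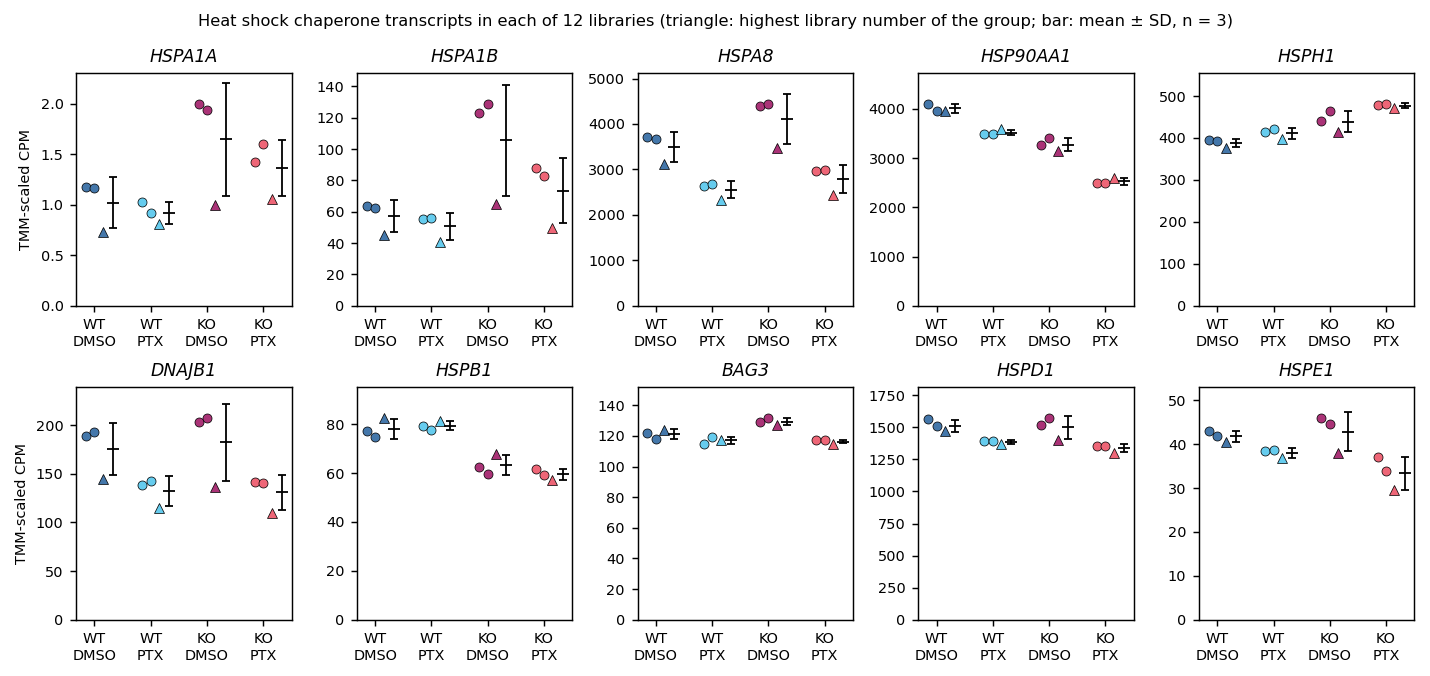
TMM-scaled CPM of each gene in 12 libraries, by group, each panel with its own axis from 0. Triangles are the highest-numbered library of each group, circles the other libraries, and the bars mean ± SD of 3 libraries; triangles lie lowest in every group for HSPA1A, HSPA1B, HSPA8, HSPH1, DNAJB1, HSPD1 and HSPE1, while the HSP90AA1 groups are narrow and separate.

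DNAJB1 (HSP40), the partner that hands clients to HSP70, lies on chromosome 19 (14514770 to 14529770, minus strand), and 6.21% of its exon bases overlap MIR639 and TECR. Its levels were 189, 145 and 193 CPM in WT DMSO, 143, 139 and 115 in WT paclitaxel, 203, 208 and 137 in GLI2 KO DMSO, and 142, 141 and 109.9 in GLI2 KO paclitaxel. In WT cells the treatments did not overlap, by the narrow gap between 143 and 145 CPM, whereas in GLI2 KO cells the lowest DMSO sample lay below the 2 highest paclitaxel samples. Mean changes were -0.41 ± 0.19 in WT (edgeR adjusted p = 0.0925) and -0.48 ± 0.19 in GLI2 KO cells (edgeR adjusted p = 0.0572), which did not pass. Both passed with DESeq2 (-0.415 and -0.47), with a block for neighbouring library numbers (-0.40 and -0.46), with a term for the highest-numbered libraries (-0.40 and -0.47) and without those libraries (-0.43 and -0.53). Without GLI2 KO DMSO replicate 3 both passed as well (-0.415 and -0.65), and without WT DMSO replicate 2 the change in GLI2 KO cells did (-0.485); adjusted p ran up to 0.269 and 0.200 over 22 alternatives each. Genotype differences were 0.056 ± 0.19 in DMSO and -0.012 ± 0.19 in paclitaxel, with 95% intervals of -0.39 to 0.50 and -0.46 to 0.43.

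HSPH1 (HSP105), a nucleotide exchange factor of HSP70 that also holds unfolded clients, lies on chromosome 13 (31134974 to 31162388, minus strand). Its levels were 395, 376 and 392 CPM in WT DMSO, 422, 415 and 397 in WT paclitaxel, 439.5, 464 and 414 in GLI2 KO DMSO, and 478, 482 and 472 in GLI2 KO paclitaxel. The 4 groups rose in that order by their means, and none of the compared pairs overlapped, in the WT treatments by the narrow gap between 395 and 397 CPM. HSPH1 was 13.3% higher in GLI2 KO than WT cells in DMSO (0.18 ± 0.036; edgeR adjusted p = 0.000175) and 16.1% higher in paclitaxel (0.215 ± 0.036; edgeR adjusted p = 1.77e-05), and all 21 alternatives kept both calls. Paclitaxel raised it by 6.05% in WT (0.085 ± 0.036; edgeR adjusted p = 0.0388), with a rise of 8.67% in GLI2 KO cells (0.12 ± 0.035; edgeR adjusted p = 0.00477). The rise in WT cells is fragile: the call was lost with DESeq2 (0.077) and without GLI2 KO paclitaxel replicate 2 (0.081), WT DMSO replicate 2 (0.058), WT DMSO replicate 3 (0.093), WT paclitaxel replicate 1 (0.068) or WT paclitaxel replicate 2 (0.076). The rise in GLI2 KO cells lost its call without GLI2 KO DMSO replicate 3 (0.072).

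HSPH1 and its partner HSPA8 therefore parted under paclitaxel. The ratio of HSPH1 to HSPA8 counts went from 0.111 ± 0.0081 to 0.161 ± 0.0073 in WT cells and from 0.108 ± 0.0099 to 0.172 ± 0.019 in GLI2 KO cells (mean ± SD, n = 3), without overlap in either genotype (log2 differences 0.54 and 0.68, exact permutation p = 0.1 each). HSPH1 to DNAJB1 rose likewise, from 2.24 ± 0.31 to 3.13 ± 0.27 and from 2.47 ± 0.47 to 3.69 ± 0.52, again without overlap (0.49 and 0.58; exact permutation p = 0.1 each). DNAJB1 to HSPA8 differed less, with treatments overlapping in both genotypes: it was 0.050 ± 0.0031, 0.0517 ± 0.0020, 0.0441 ± 0.0040 and 0.0469 ± 0.0015 in WT DMSO, WT paclitaxel, GLI2 KO DMSO and GLI2 KO paclitaxel.

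**Figure D4:**
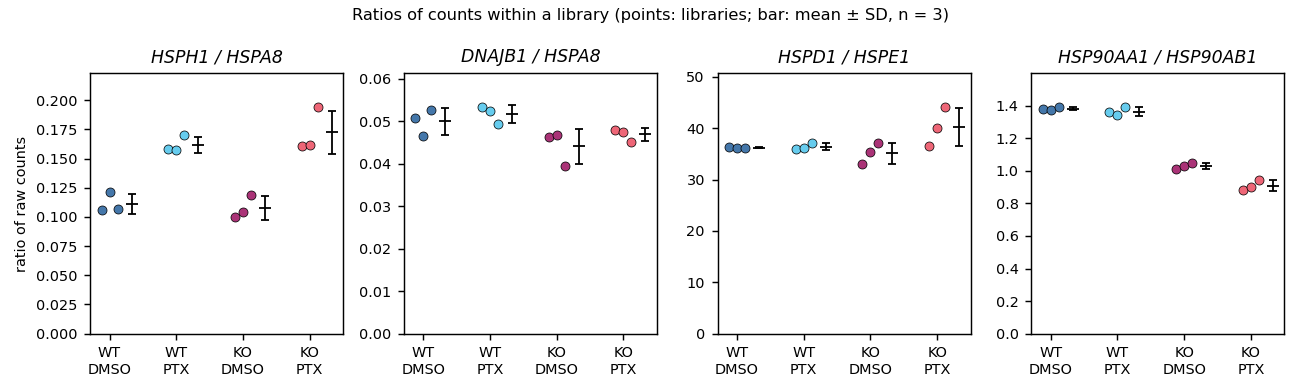
Ratios of raw counts of 2 genes within each library (points), by group, with mean ± SD of 3 libraries. The HSPH1 to HSPA8 ratio is higher in all paclitaxel libraries than in the DMSO libraries of the same genotype, and the HSP90AA1 to HSP90AB1 ratio is lower in all GLI2 KO libraries than in all WT libraries; the ratio needs no scaling between libraries.

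BAG3, a nucleotide exchange factor that links HSP70 clients to autophagy, lies on chromosome 10 (119651370 to 119677819, plus strand). Its levels were 122, 124 and 118 CPM in WT DMSO, 119, 115 and 117 in WT paclitaxel, 129, 132 and 127 in GLI2 KO DMSO, and 117, 117 and 115 in GLI2 KO paclitaxel. The GLI2 KO DMSO samples were the highest of all 12, and the other groups lay close together. BAG3 fell by 10.1% under paclitaxel in GLI2 KO cells (-0.15 ± 0.029; edgeR adjusted p = 6.58e-05), a call that was lost with upper-quartile factors (-0.031) and turned in sign with library totals (0.024, not called). In WT cells the change was -0.053 ± 0.029 (edgeR adjusted p = 0.117), and with library totals (0.10) or upper-quartile factors (0.080) it became a called rise. BAG3 was 6.46% higher in GLI2 KO than WT cells in DMSO (0.090 ± 0.029; edgeR adjusted p = 0.0153), a call that was lost without GLI2 KO DMSO replicate 2 (0.081) or WT DMSO replicate 3 (0.073) and with either of those scalings (0.063 and 0.067). In paclitaxel the genotypes differed by -0.011 ± 0.029, with a 95% interval of -0.071 to 0.050.

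HSPB1 (HSP27), a small heat shock protein that holds unfolded clients and binds actin, lies on chromosome 7 (76302544 to 76304295, plus strand). Its levels were 77.1, 82.7 and 74.7 CPM in WT DMSO, 77.7, 79.1 and 81.2 in WT paclitaxel, 62.4, 59.6 and 67.7 in GLI2 KO DMSO, and 61.8, 59.3 and 57.3 in GLI2 KO paclitaxel. All 6 GLI2 KO samples lay below all 6 WT samples. The percent difference of GLI2 KO from WT cells was -19 in DMSO (-0.305 ± 0.043; edgeR adjusted p = 5.06e-06) and -25.1 in paclitaxel (-0.42 ± 0.043; edgeR adjusted p = 5.19e-08), and all 21 alternatives kept both calls. Treatments overlapped in both genotypes, with changes of 0.022 ± 0.043 in WT and -0.090 ± 0.044 in GLI2 KO cells (edgeR adjusted p = 0.663 and 0.0766). The WT change became a called rise with library totals (0.18) or upper-quartile factors (0.155). The change in GLI2 KO cells passed as a fall without GLI2 KO DMSO replicate 2 (-0.13), GLI2 KO paclitaxel replicate 1 (-0.12) or WT DMSO replicate 2 (-0.097).

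HSPD1 (HSP60) and HSPE1 (HSP10) form the mitochondrial chaperonin and its lid, and lie head to head on chromosome 2 (197486581 to 197516737, minus strand, and 197499994 to 197503457, plus strand). HSPE1 shares 23.9% of its exon bases with HSPD1 and the readthrough gene HSPE1-MOB4, and its 5 pseudogene copies in the table held 0.991% as many counts as HSPE1, so its counts are uncertain. HSPD1 was at 1562, 1468 and 1512 CPM in WT DMSO, 1394, 1395 and 1369.5 in WT paclitaxel, 1520, 1577 and 1405 in GLI2 KO DMSO, and 1354, 1354 and 1301 in GLI2 KO paclitaxel. Paclitaxel samples lay below all DMSO samples of their genotype. HSPD1 fell by 8.45% in WT (-0.13 ± 0.037; edgeR adjusted p = 0.00363) and dropped by 10.9% in GLI2 KO cells (-0.17 ± 0.037; edgeR adjusted p = 0.000306). It was small beside the choice of scale: with library totals it turned to 0.029 and 0.011, and with upper-quartile factors to 0.0057 and -0.044, none of them called. In WT cells a minimum count of 50 also ended the call (-0.059). Genotypes differed by -0.013 ± 0.037 in DMSO and -0.053 ± 0.037 in paclitaxel, with 95% intervals of -0.089 to 0.062 and -0.13 to 0.023.

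HSPE1 was at 43.0, 40.5 and 41.9 CPM in WT DMSO, 38.8, 38.5 and 36.8 in WT paclitaxel, 46.1, 44.7 and 37.9 in GLI2 KO DMSO, and 37.0, 33.8 and 29.5 in GLI2 KO paclitaxel. The treatments did not overlap in either genotype. It fell by 22.1% in GLI2 KO cells (-0.36 ± 0.085; edgeR adjusted p = 0.00323), a call lost with library totals (-0.18), while the change in WT cells was -0.14 ± 0.085 (edgeR adjusted p = 0.178). The WT change was called as a fall in 4 of 22 alternatives: with the block for neighbouring library numbers (-0.14), with the term for the highest-numbered libraries (-0.13), without those libraries (-0.13) and with only the 2 groups fitted (-0.12). With library totals it was 0.020, not called. The difference between these effects, -0.22 ± 0.12, did not pass (edgeR adjusted p = 0.275), but did without GLI2 KO DMSO replicate 3 (-0.31), with a block for neighbouring library numbers (-0.225), with a term for the highest-numbered libraries (-0.23) and without those libraries (-0.23). In paclitaxel GLI2 KO cells were at -0.19 ± 0.085 relative to WT (edgeR adjusted p = 0.0978), which passed in 8 of 21 alternatives: without GLI2 KO DMSO replicate 3 (-0.19) or GLI2 KO paclitaxel replicate 1 (-0.265), with DESeq2 (-0.18), a minimum count of 50 (-0.20), only the 2 groups fitted (-0.19), upper-quartile factors (-0.22) or the term (-0.19), and without the 4 highest-numbered libraries (-0.13). The ratio of HSPD1 to HSPE1 counts was 36.2 ± 0.11, 36.5 ± 0.70, 35.1 ± 2.1 and 40.3 ± 3.7 in WT DMSO, WT paclitaxel, GLI2 KO DMSO and GLI2 KO paclitaxel. In WT cells it ranged only from 35.9 to 37.2 over both treatments, and the GLI2 KO groups overlapped (exact permutation p = 0.2).

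Levels per kilobase of exon place the 10 genes on 1 scale. In WT DMSO, HSP90AA1 (764 ± 16.4 CPM per kb) and HSPA8 (721 ± 68.5) stood highest and overlapped, followed by HSPD1 (357 ± 11.2). HSPB1 (47.8 ± 2.5), DNAJB1 (47.8 ± 7.2), HSPH1 (46.2 ± 1.2) and BAG3 (44.2 ± 1.2) formed a middle tier of neighbours that overlapped. HSPA1B (22.7 ± 4.1) and HSPE1 (21.1 ± 0.63) overlapped below them, and HSPA1A was last at 0.411 ± 0.10. The order of the leading genes changed with genotype: in GLI2 KO cells HSPA8 was above HSP90AA1 without overlap, at 847 ± 112 against 624 ± 26.1 CPM per kb in DMSO and 576 ± 64.0 against 481 ± 12.2 in paclitaxel. In WT paclitaxel HSP90AA1 led at 671 ± 11.1 against 526 ± 38.8 for HSPA8, also without overlap. HSPD1 came next in all 4 groups and HSPA1A last. Exon lengths are unions over transcripts, so a gene that uses short transcripts reads too low on this scale. Counts of HSPA1A, HSPA1B and HSPE1 are uncertain for the reasons given above, so their places on this scale are uncertain too.

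The wider chaperone network was read from gene lists, some of which share genes, described by counts and medians. These are to be read beside the shares of all genes called lower and higher, 32.1% and 34.6% in WT and 32.2% and 33% in GLI2 KO cells under paclitaxel with TMM, and 19.5% and 47.1%, and 17.4% and 47.3%, with library totals. Between genotypes 19.6% of all genes were called lower and 22% higher in DMSO, and 22.2% and 23.4% in paclitaxel. Of 19 HSP90 co-chaperones tested, 13 fell and 0 rose in WT cells (median -0.22), and 15 fell and 1 rose in GLI2 KO cells (-0.20). With library totals these became 7 and 5 in WT and 8 and 4 in GLI2 KO cells, with medians of -0.062 and -0.028. FKBP5, a co-chaperone of steroid receptors, fell from a mean of 110.2 to 74.9 CPM in WT and from 94.0 to 64.2 CPM in GLI2 KO cells (-0.56 ± 0.032 and -0.55 ± 0.032; edgeR adjusted p = 1.85e-13 and 2.54e-13). CACYBP and PTGES3 fell in GLI2 KO cells by 0.48 and 0.43 on the log2 scale. PPID was lower in GLI2 KO than WT cells in DMSO (-0.31) and in paclitaxel (-0.34). Of the 19, 4 were called higher and 6 lower in GLI2 KO cells in DMSO, and 2 higher and 6 lower in paclitaxel.

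Partners of HSP70 moved in both directions. Among 17 DNAJ genes tested beside DNAJB1, 11 fell and 4 rose in WT cells (median -0.15) and 9 fell and 3 rose in GLI2 KO cells (-0.097), and with library totals these medians turned to 0.011 and 0.081. DNAJC5 fell by 0.59 and 0.68 in WT and GLI2 KO cells, while DNAJB2 rose by 0.69 and 0.70. In GLI2 KO cells 7 of the 17 were called higher and 2 lower than in WT cells in DMSO, and 8 higher and 1 lower in paclitaxel. Of 8 BAG and other exchange factors, 4 fell and 2 rose in WT cells and 5 fell and 0 rose in GLI2 KO cells (medians -0.068 and -0.10). With library totals 2 fell and 4 rose in WT cells, and in GLI2 KO cells the split reversed to 0 that fell and 4 that rose (medians 0.089 and 0.075). GRPEL1, the exchange factor of mitochondrial HSP70, stood out in the genotype comparison, with means of 92.1 and 136 CPM in WT and GLI2 KO cells in DMSO (0.56 ± 0.040; edgeR adjusted p = 8.40e-11) and 98.4 and 133 CPM in paclitaxel (0.44 ± 0.040; edgeR adjusted p = 4.88e-09). Among the 8 exchange factors, 2 were called higher and 2 lower in GLI2 KO cells in DMSO, and 3 higher and 4 lower in paclitaxel. Other HSP70 genes fell under paclitaxel in 6 of 8 cases in each genotype, with 1 rise in WT and 0 in GLI2 KO cells (medians -0.21 and -0.16, the latter turning to 0.015 with library totals). In GLI2 KO cells 3 of these HSP70 genes were called higher and 2 lower than in WT cells in DMSO, and 4 higher and 4 lower in paclitaxel.

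Folding machines of the cytosol and mitochondria came next. Of 14 TRiC and prefoldin subunits, 10 fell in WT and 11 in GLI2 KO cells and 0 rose (medians -0.13 and -0.20). With library totals 1 fell and 2 rose in WT cells (median 0.028), and 4 fell and 2 rose in GLI2 KO cells (-0.019). With TMM the falls in GLI2 KO cells were led by CCT4 (-0.29). In GLI2 KO cells 6 of these subunits were called higher and 0 lower than in WT cells in DMSO, and 4 higher and 3 lower in paclitaxel. Of 15 mitochondrial chaperones and proteases, 9 fell and 4 rose in WT and 9 fell and 1 rose in GLI2 KO cells (medians -0.145 and -0.10, turning to 0.011 and 0.075 with library totals), with LONP1 at -0.55 and -0.43 and TRAP1, the mitochondrial HSP90, at -0.48 and -0.38. Of these 15, 3 were called higher and 2 lower in GLI2 KO than WT cells in DMSO, and 4 higher and 2 lower in paclitaxel. HSPA9, TRAP1, DNAJA3, GRPEL1 and GRPEL2 of this list are in the other lists too. The endoplasmic reticulum chaperones, a separate stress system, held their direction under each scale tried: 16 of 16 fell in WT and 14 of 16 in GLI2 KO cells (medians -0.45 and -0.435), and still 11 and 12 with library totals (-0.29 and -0.26). In GLI2 KO cells 10 of the 16 were called higher than in WT cells in DMSO and 12 in paclitaxel, with 0 lower and HYOU1 at 0.68 and 0.69.

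**Figure D5:**
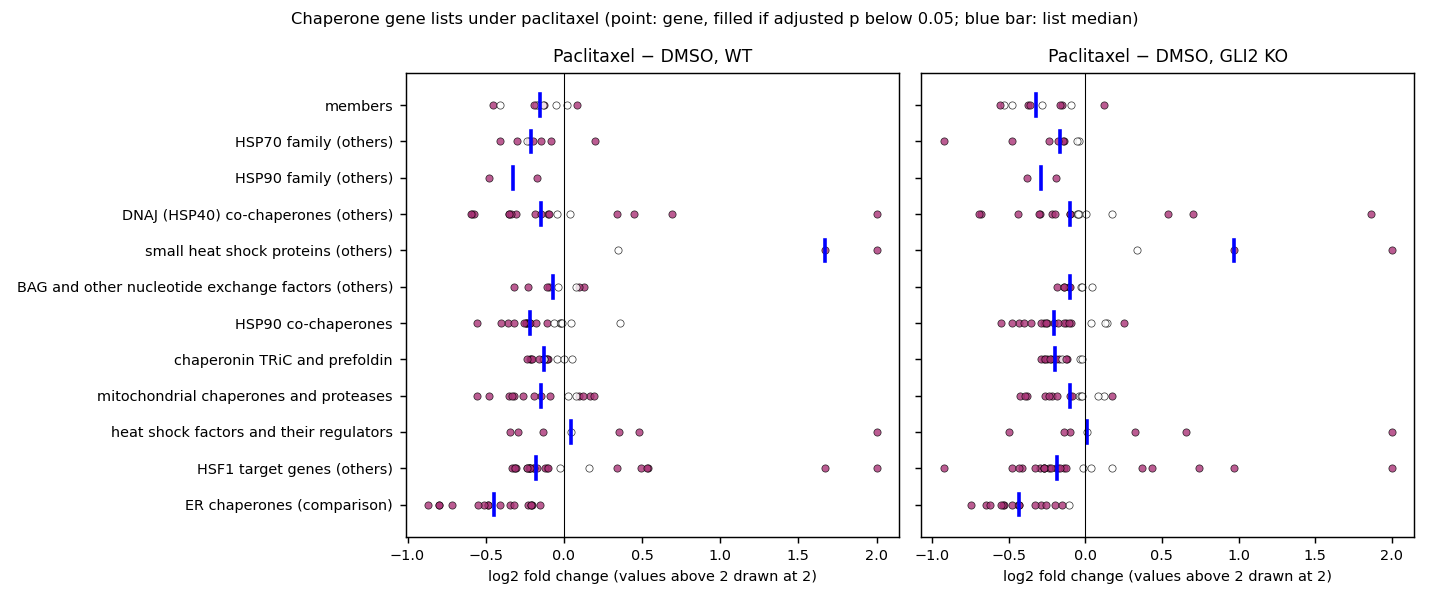
Log2 fold change of single genes (points, filled where the adjusted p is below 0.05) under paclitaxel for the 10 genes and related lists, in WT and GLI2 KO cells, with list medians as blue bars and values above 2 drawn at 2. All values drawn use TMM scaling, with which most medians lie below 0. With library totals, which are not drawn, the medians of the DNAJ, exchange factor and mitochondrial lists lie above 0 in both genotypes. So do those of the 10 genes and of TRiC and prefoldin in WT cells, and of the other HSP70 genes in GLI2 KO cells.

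Heat shock factors and HSF1 targets were read the same way. Of 7 heat shock factors and regulators, 3 rose and 3 fell under paclitaxel in each genotype (medians 0.046 and 0.011). Between genotypes 4 were called higher and 0 lower in GLI2 KO than WT cells in DMSO, and 5 higher and 0 lower in paclitaxel (medians 0.28 each). HSF1 itself was higher in GLI2 KO than WT cells in paclitaxel, at mean levels of 111 and 89.0 CPM (0.32 ± 0.031; edgeR adjusted p = 5.21e-09). HSBP1, which binds and restrains HSF1, fell under paclitaxel (-0.345 in WT, -0.50 in GLI2 KO cells) and was higher in GLI2 KO cells (0.43 in DMSO, 0.28 in paclitaxel). Of 24 HSF1 targets known from other cells and outside the members, 15 fell and 6 rose in WT cells and 16 fell and 5 rose in GLI2 KO cells (medians -0.18 and -0.19), which became 6 and 7, and 7 and 7, with library totals (-0.024 and -0.0089). In the genotype comparisons 9 were called higher and 5 lower in GLI2 KO cells in DMSO, and 7 higher and 7 lower in paclitaxel. Most of these 24 genes are also in the lists above, so their counts are not separate from those.

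HSPB8, a small heat shock protein that works with BAG3, was higher in all 4 comparisons, under paclitaxel and in GLI2 KO cells. Its levels were 1.82, 1.80 and 2.27 CPM in WT DMSO, 6.36, 6.38 and 5.94 in WT paclitaxel, 12, 11.5 and 9.09 in GLI2 KO DMSO, and 21.7, 22.2 and 20 in GLI2 KO paclitaxel. No groups overlapped. Paclitaxel raised it by 1.67 ± 0.11 in WT and 0.97 ± 0.082 in GLI2 KO cells (edgeR adjusted p = 9.94e-11 and 3.83e-09), a difference of -0.695 ± 0.14 (edgeR adjusted p = 0.00260). In GLI2 KO cells HSPB8 was 2.47 ± 0.11 above WT in DMSO and 1.77 ± 0.086 above it in paclitaxel (edgeR adjusted p = 2.25e-13 and 1.93e-12). Its partner BAG3 had means of 121, 117, 129 and 116 CPM in WT DMSO, WT paclitaxel, GLI2 KO DMSO and GLI2 KO paclitaxel. Both were higher in GLI2 KO than WT cells in DMSO, by 2.47 and 0.090 log2 units.

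Genes next to a member on its chromosome give the regional values beside the genotype differences. Of 20 neighbours of HSP90AA1 (10 on each side), 15 were called lower and 1 higher in GLI2 KO than WT cells in DMSO, with a median of -0.21, and in paclitaxel 10 lower and 2 higher, with a median of -0.195. HSP90AA1 itself was at -0.29 and -0.48. Of 20 neighbours of HSPA8, 13 were higher and 1 lower in DMSO (median 0.46) and 10 higher and 1 lower in paclitaxel (0.35). HSPH1 went against its region, where 11 of 20 neighbours were lower and 1 higher in DMSO (median -0.22) and 12 lower and 3 higher in paclitaxel (-0.245). Around HSPB1 the medians were 0.049 and 0.066, with 4 higher and 3 lower in each treatment. Around HSPA1A and HSPA1B, 8 of 19 neighbours each were higher and 1 lower in DMSO (medians 0.115 and 0.087). In paclitaxel 6 were higher and 2 lower (0.15 and 0.14). Of all genes, 22% were called higher and 19.6% lower in DMSO, and 23.4% and 22.2% in paclitaxel. Whether copy number differs between the genotypes was not tested.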

How the data were processed

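The deposited table of counts holds whole numbers per gene, not normalised, for 25049 genes in 12 samples; a second deposited table holds a signal per gene that equals each count over 1 factor for its sample (largest relative deviation 5.33e-15) and was used only for that check. Per the submitters' processing notes, Trim Galore 0.6.7, STAR, DESeq2 1.36.0 and hg38 were used, with no roles given. What counted the reads, on which annotation and whether by strand, was not given in the sources used here. Multi-mapped reads and overlaps can therefore shift HSPA1A, HSPA1B and HSPE1 most.

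Groups came from the sample titles. Counts were fitted in edgeR 4.0.16 (R 4.3.3) with TMM factors, filterByExpr by group with a minimum count of 10 (21974 genes, 87.7%), a mean per group over all 12 samples, 8 residual degrees of freedom and the robust quasi-likelihood F test. P-values are two-sided and adjusted over all genes within each of 5 comparisons. SE was taken as the size of the log2 change divided by the root of F. A level of 3 counts equals 0.0275 to 0.0360 CPM, and such floors cover counting error only. The fit was run on simulated data for paclitaxel in WT cells (21259 genes). Few genes were changed there, all of them well counted and evenly split between up and down. Of those changed 1.25-fold 77% were recovered and of those changed 2-fold 99%, with 18 false calls. In the real data 66.7% of genes were called. The simulation therefore does not test the choice of scale or the pattern of the highest-numbered libraries.

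Members and lists were chosen with earlier results of these data known. All members are named, and from each list at most 3 called genes per comparison that had the largest change, where either group averaged 5 CPM or more; for members with a called paclitaxel change of at least 0.5, the 3 genes closest over the group means; the count ratios were chosen after values were seen. Alternatives were RLE, upper-quartile and library-total scaling, a minimum count of 50, no filter, DESeq2 1.42.0, fits of 2 groups, each replicate left out, HSPA1A and HSPA1B summed, and 3 added later. Promoter sequences are from RefSeq (GRCh38.p14) and gene positions from GENCODE 29 (GRCh38).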

Additional observations from a re-analysis of the deposited data

Results flagged for a closer look

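The effect of paclitaxel on HSP90AA1 differed between the genotypes, by -0.187 ± 0.049 on the log2 scale (GLI2 KO minus WT; edgeR adjusted p = 0.0114 for the interaction term). All 3 paclitaxel samples of each genotype lay below the 3 DMSO samples, with a change of -0.19 in WT and -0.37 in GLI2 KO cells. The other 9 genes did not pass this test, which does not show that their effects were alike.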

How the results depend on the processing

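Over 23 alternative settings, 977 of 1080 results on single genes kept their direction and side of the threshold or, for 29 of them, turned in sign without a call before or after, 30 lost a call, 67 gained one and 6 reversed. The reversals came from scaling alone: with library totals BAG3 gave 0.104 in WT and 0.0235 in GLI2 KO cells under paclitaxel and HSPD1 gave 0.029 and 0.0105, and with upper-quartile factors BAG3 gave 0.0803 and HSPD1 0.00571 in WT cells. These factors shift all genes alike, so small falls turn.

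Counts of members called also moved. For paclitaxel in WT cells (4 called) they were 7 without the highest-numbered library of each group and 7 with a block for neighbouring library numbers, and 3 to 5 when 1 replicate was left out. For paclitaxel in GLI2 KO cells (6 called) there were 3 with library totals, 9 each without the highest-numbered libraries, with a term for them and with the block, and 6 to 8 with a replicate left out. For genotype in DMSO (5 called) there were 9 without the highest-numbered libraries (7 higher, 2 lower), and 3 to 6 with a replicate left out, 3 without GLI2 KO DMSO replicate 2 or WT DMSO replicate 3. For genotype in paclitaxel (3 called) there were 5 with DESeq2, 5 with only the 2 groups fitted, 5 with upper-quartile factors, 7 without the highest-numbered libraries, 7 with a term for them, and 3 to 5 with a replicate left out, 5 without GLI2 KO DMSO replicate 3. For the difference of effects (1 called) there were 5 without those libraries, 3 with the block, 2 with the term, and 1 to 2 with a replicate left out, 2 without GLI2 KO DMSO replicate 3. The cause was not tested. Shares of all genes called moved less: without the highest-numbered libraries they were 66%, 63.7%, 43.4%, 46.8% and 17.6% in the same order of comparisons, beside 66.7%, 65.2%, 41.6%, 45.6% and 13.5%. With the term they were 68.5%, 67%, 44.5%, 48.7% and 17.6%. The block gave 68% and 66.4% for paclitaxel in WT and GLI2 KO cells and 17.4% for the difference. Library totals gave 64.8% for paclitaxel in GLI2 KO cells. For genotype in paclitaxel DESeq2 gave 43%, the 2 groups alone 49.2% and upper-quartile factors 46.1%.

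The block, the term and the refit without 4 libraries were added after seeing the data. The labels give no replicate numbers and do not say that neighbouring library numbers form pairs. Deviations from the group means correlated at 0.15 to 0.31 over 10940 genes in the 6 neighbouring pairs. Other pairs were not computed, so these values cannot tell pairing from a pattern common to more libraries. Depth limits HSPA1A most, at 1 to 2 CPM.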
